A study of Bos taurus with 29 samples.

Results

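Of the 37925 bovine transcripts measured in endometrial cells, 26 were lower with high progesterone (P4) in the stroma (ST) and in the glandular epithelium (GE) and met a limit on how far their levels differed between these cell types and the luminal epithelium (LE). They were chosen by their own TPM values (the library-scaled level of a transcript, corrected for its length), in 5 steps. All 3 ST P4high samples had to lie below all 9 ST P4low samples, the ST P4low mean had to be at least 1 TPM, and the GE P4low median had to be above 0 and at least 1.5 times the GE P4high median. Among the mean levels of LE, GE and ST in P4low samples, the highest plus 0.5 had to stay under 5 times the lowest plus 0.5, and transcripts with at least 100 TPM in every sample were left out. The first step left 104 transcripts, and the next steps left 97, 44, 36 and 26. The differences between P4 groups in ST and GE are therefore a description of the choice, and nothing is read from the tests of them given below.

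The 3 cell types were cut by laser from biopsies of healthy Holstein cows taken 45 days postpartum by the sample labels, where the series text gives a day less, and 29 samples from 13 cows were sequenced. P4 was the cow's own circulating hormone, not a treatment, and cows above 1 ng/mL were called P4high. ST was sampled from 3 P4high and 9 P4low cows, GE from 3 and 7, and LE from 1 and 6, with 4 P4high and 9 P4low cows in all, numbered here from 1 to 13. The P4low cows were partly in anoestrus and partly cyclic, and the labels do not say which, while ST as cut may hold fibroblasts, endothelial and immune cells. Because many cows gave more than 1 cell type, 2 P4high and 7 P4low cows stand in both the ST and the GE comparison.

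Progesterone is made by the corpus luteum after ovulation and acts on the endometrium through its nuclear receptor in epithelium and stroma. It is known for ending oestrogen-driven growth of the endometrium, for lowering the receptors of oestrogen and in time its own, and for preparing the glands to feed an embryo. The LE lines the lumen and meets the embryo first, the GE secretes into the lumen, and the ST carries the vessels and the matrix. The transcripts could not be paired with genes, since neither the files nor the reference table used here links the transcript identifiers to gene names, so no function is given for any of the 26. By the rule for naming, only the transcript with the largest ST difference and the one with the highest ST P4low level are given by identifier, and the others are called by their rank of ST difference, from 1 (largest) to 26.

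The libraries held 24860445 to 33209181 estimated counts. As a check of the cell types without gene names, 9 transcripts had a mean of at least 100 TPM in both epithelia of P4low cows and were at least 50 times lower in ST. Their summed level was 14568 to 130143 TPM over the GE and LE samples, 11.3 to 2421 TPM in ST P4low and 903 to 6440 TPM in ST P4high, where cow 4 was highest. No transcript met the same limits for ST, and with a limit of 5 times over the epithelia, set after seeing the data, 15 did. Their sum was 2939 to 11962 TPM in ST P4low, 1805 to 4751 TPM in ST P4high and at most 1660 TPM in the epithelia. Both sets were chosen on the P4low samples. The 26 hold 0 of either set, which the limit on the fold between cell types all but fixed. The part of these cells in the lower ST levels was not tested, and fewer cells of a type cannot be told apart from less RNA per cell.

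The level of the 26 transcripts was summarised as their median in each sample. In ST this median was 4.59, 4.99 and 6.27 TPM in P4high cows 5, 4 and 9, and 14.3 to 31.0 TPM in the P4low cows (middle value 19.7, n = 9). The ST groups did not overlap, which the rule required of each transcript. In GE the median was 2.06, 2.76 and 3.04 TPM in P4high cows 4, 9 and 2 and 3.39 to 21.7 TPM in the P4low cows (middle value 7.75, n = 7). The lowest GE P4low sample, that of cow 10, was close to the P4high samples. In LE the rule used the P4high sample only in the limit on abundant transcripts. The only P4high cow there, cow 9, was at 3.02 TPM, below the P4low range of 3.52 to 22.5 TPM (middle value 8.23, n = 6).

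**Figure D1:**
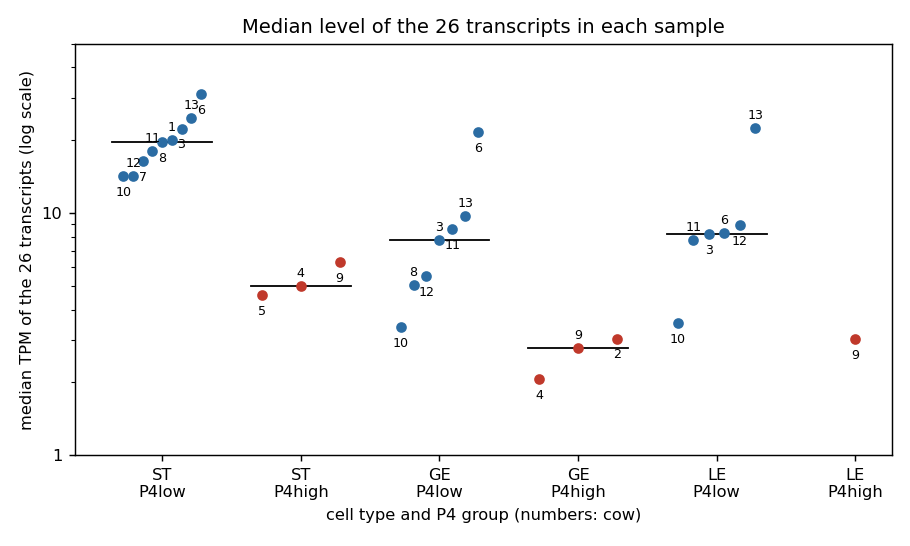
Median TPM of the 26 transcripts (log scale) in each of 29 samples, by cell type and P4 group, with 1 point per sample, the cow's number beside it and a line at the group median. The ST P4high samples lie between 4.59 and 6.27 TPM and the ST P4low samples between 14.3 and 31.0 TPM, while in GE and LE the sample of P4low cow 10 (3.39 and 3.52 TPM) lies close to the P4high samples.

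On the scale of mean log2(TPM + 0.5), P4high minus P4low, the difference in ST ranged from -4.42 to -0.82 with a median of -1.29, or 2.44-fold lower. Over the 15561 transcripts that met the limits on level and cell type alone, the median ST difference was 0.27, so that TPM values lay somewhat higher in ST P4high for most transcripts. In GE the 26 lay between -2.55 and -0.55 with a median of -1.07 (all 15561, 0.20). In LE they lay between -2.51 and 0.93 with a median of -1.23 (all 15561, -0.26). On CPM values scaled by TMM, which remove most of the general shift (0.01 in ST and in GE, -0.02 in LE), the medians of the 26 were -1.51, -1.33 and -0.98. All 26 were lower in ST and in GE on both scales, as the rule all but fixed, and 25 were lower in LE.

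**Figure D2:**
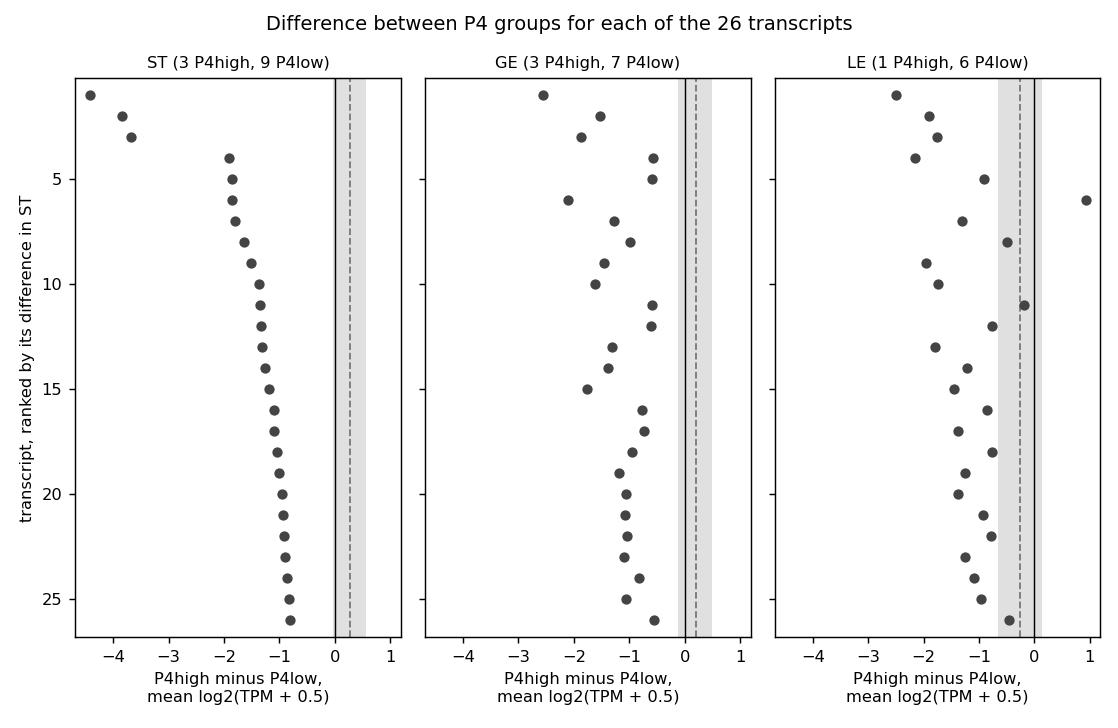
Difference between P4high and P4low in mean log2(TPM + 0.5) for each of the 26 transcripts, ordered by the difference in ST, in ST, GE and LE. The grey band spans the middle 50% of the 15561 transcripts that met the limits on level and cell type and the dashed line is their median (0.27, 0.20 and -0.26), while the 26 have medians of -1.29, -1.07 and -1.23.

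Complete separation of the ST groups, with P4high lower, was found for 56 of the 15561 transcripts (0.36%), and the opposite, with P4high higher, for 632 (4.06%). The rule turned round, for transcripts higher with P4 in ST and GE within the same limits, held 262 transcripts against the 26. On CPM values scaled by TMM the rule gave 73 lower and 109 higher transcripts, and 22 of the 26 were among the 73. By this rule the higher transcripts thus outnumbered the lower ones on both scales, and the size of the gap depended on the scale. Tests over 27480 transcripts, at an adjusted p of at most 0.05, went both ways. DESeq2 called 261 lower and 163 higher in ST, and 477 and 110 in GE. By edgeR 2 were lower and 47 higher in ST, and 0 of either in GE. Limma voom called 8 lower and 81 higher in ST, and 6 and 70 in GE. In GE, where the rule asked for a ratio of medians, 6 of the 26 had P4high samples below all P4low samples, against 0.72% of the 15561. The 26 were chosen on these same GE samples, so a share above that of the 15561 was built in.

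The limits separated values that in part lay close together. The narrowest separation in ST was 8.22 TPM in the highest P4high and 8.29 TPM in the lowest P4low sample, and the first transcript outside had 99.1 and 98.4 TPM. The smallest GE ratio inside was 1.51 and the largest outside 1.48. The ST P4low means nearest the limit were 1.67 TPM inside and 0.854 TPM outside, and the folds between cell types nearest the limit were 4.95 and 5.97. The lowest level over all samples was at most 76.5 TPM inside and at least 119 TPM for the 10 transcripts left out as abundant, which had ST P4low means of 241 to 2267 TPM.

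In ST, 3 transcripts stood apart, with differences of -4.42, -3.85 and -3.69, while the other 23 lay between -1.90 and -0.82. The first was ENSBTAT00000079286.1, of 1080 bases. Its level in ST was 1.55, 2.64 and 19.1 TPM in P4high cows 5, 4 and 9 and 24.9 to 315 TPM in P4low cows (middle value 121, n = 9). The sample of cow 9 was thus far above the other P4high samples and near the lowest P4low sample, that of cow 3. In GE it was 0.729, 5.77 and 7.82 TPM in P4high cows 4, 2 and 9 and 4.61 to 104 TPM in P4low cows (middle value 12.7, n = 7), so that the GE groups overlapped. In LE it was 3.32 TPM in P4high cow 9, 3.31 TPM in P4low cow 10 and 18.8 to 49.2 TPM in the other 5 P4low cows. On the counts, the edgeR fit put its log2 fold change at -4.44 in ST (standard error 1.2), at -3.30 in GE (standard error 1.13) and at -2.79 in LE (standard error 1.83), the last with a Benjamini-Hochberg adjusted p of 0.857 by edgeR. Without cow 9 the ST value was -6.43.

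Rank 2 was a long transcript of 7829 bases. Its ST level was 0.236, 0.351 and 1.76 TPM in P4high cows 5, 4 and 9 and 5.87 to 34.8 TPM in P4low cows, a margin of 3.34 times between the nearest samples. In GE it was listed at 0 in all 3 P4high samples and in P4low cows 10 and 12, at 0.173 to 2.76 TPM in 4 other P4low cows and at 20.04 TPM in cow 6. In LE it was 0.314 TPM in P4high cow 9, below all P4low samples (0.963 to 23.0 TPM). In P4low cows the GE sample of cow 6 and the LE sample of cow 13 thus lay in the range of the ST samples, and all other epithelial samples lay below it.

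Rank 3, of 534 bases, rested on few reads. Its estimated counts in ST P4high were 1, 5 and 7, or 0.235 to 1.48 TPM, against 14.0 to 432 counts, or 2.70 to 72.7 TPM, in ST P4low. In GE its P4high samples (0.454 to 3.36 TPM) overlapped the P4low samples (0.222 to 39.4 TPM). The ST samples of P4low cows fell into a lower range of 2.70 to 6.57 TPM in cows 1, 3, 10 and 11 and a higher range of 33.1 to 72.7 TPM in the other 5. Ranks 5 and 11 were also low, with 1 and 15.6 estimated counts summed over the 3 ST P4high samples, and no fold is given for rank 5. The other 23 had at least 10 counts in each ST P4high sample.

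The transcript with the highest ST P4low level was ENSBTAT00000065478.2, of 689 bases, which ranked 10. In ST it was 71.1, 75.7 and 104 TPM in P4high cows 5, 4 and 9 and 121 to 335 TPM in P4low cows, with means of 83.5 ± 17.7 (SD, n = 3) and 228 ± 78.9 TPM (SD, n = 9). In GE it was 40.9, 44.4 and 107 TPM in P4high cows 2, 4 and 9 and 68.7 to 460 TPM in P4low cows, and cow 9 lay above the lowest P4low sample. In LE it was 122 TPM in P4high cow 9, below the P4low range of 162 to 751 TPM. Its mean over the P4low samples was highest in LE, at 445 ± 192 TPM (SD, n = 6), against 210 ± 131 TPM in GE (SD, n = 7). The log2 fold changes on the counts were -1.84 in ST (standard error 0.62), -2.11 in GE (standard error 0.64) and -1.69 in LE (standard error 1.02), where edgeR gave an adjusted p of 0.857.

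**Figure D3:**
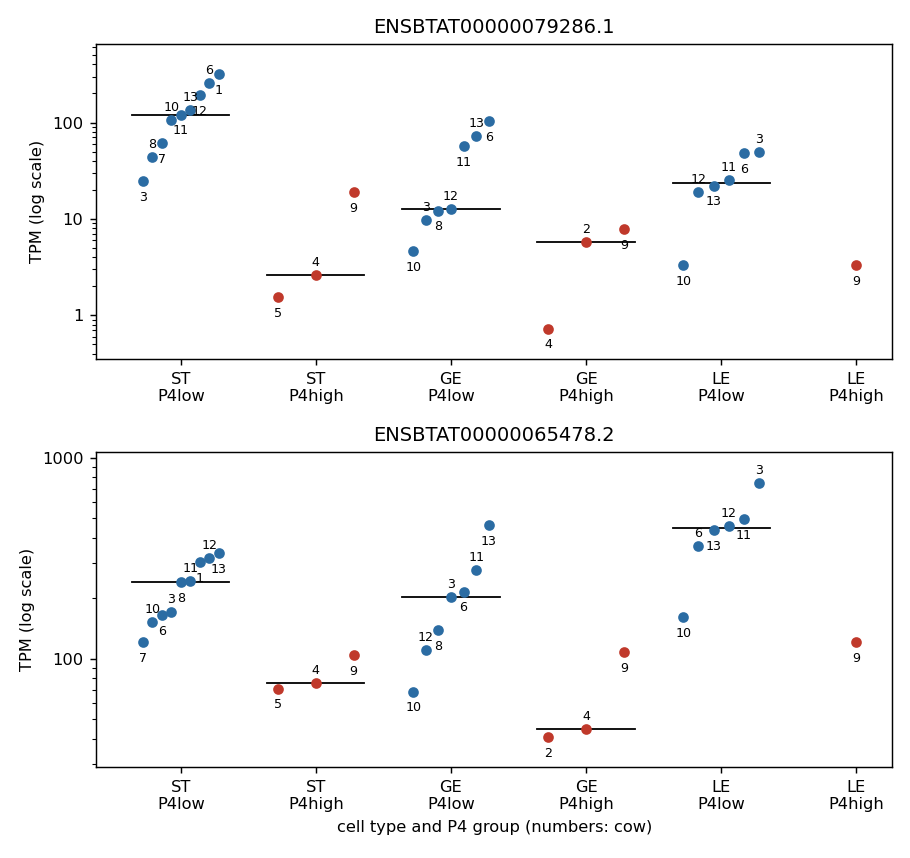
TPM (log scale) of the transcripts with the largest ST difference (ENSBTAT00000079286.1) and the highest ST P4low level (ENSBTAT00000065478.2) in each of 29 samples, with the cow's number beside each point and a line at the group median. In ST the groups are apart (at most 19.1 against at least 24.9 TPM, and at most 104 against at least 121 TPM), while in GE they overlap.

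The other transcripts had smaller ST differences and spanned a wide range of levels. By their ST P4low mean, 6 of the 26 were under 10 TPM, 12 at 10 to 50, 3 at 50 to 100 and 5 at 100 TPM or more. A difference of at least 1 on the log2 scale was reached by 19 in ST, 16 in GE and 15 in LE. Among the 15561 transcripts, 1.99%, 2.67% and 12.6% did so. Transcripts with the larger ST differences did not all have the larger GE differences, as rank 4 was at -0.57 in GE, whereas rank 6 was at -2.10. For rank 4 in GE, P4high cow 2 was at 22.6 TPM, above every P4low sample but that of cow 6 (35.9 TPM). Its GE means were 8.19 TPM in P4high and 8.37 TPM in P4low, and its edgeR log2 fold change was -0.12 (standard error 0.93). The 26 had a median length of 1810.5 bases (534 to 7829), against 2172 bases over the 15561. Their level over ST P4low samples had a median of 19.0 TPM, against 7.87 TPM.

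In P4low cows, 17 of the 26 were highest in ST, 6 in LE and 3 in GE, while 15 were lowest in GE. Of the 15561 transcripts, 38.2% were highest in ST, 24.1% in LE and 37.7% in GE, and 3162 were lowest in GE. The median fold between the highest and lowest cell type was 2.52 for the 26 and 1.61 for the 15561. The ST values had a part in choosing the 26. The limit on cell types let low transcripts differ by more, and rank 11 had P4low means of 1.67 TPM in ST and 0.074 TPM in LE, where 3 of 6 samples were at 0. Of the 26, 12 were at 1 TPM or more in every sample and 22 were above 0 in every sample.

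**Figure D4:**
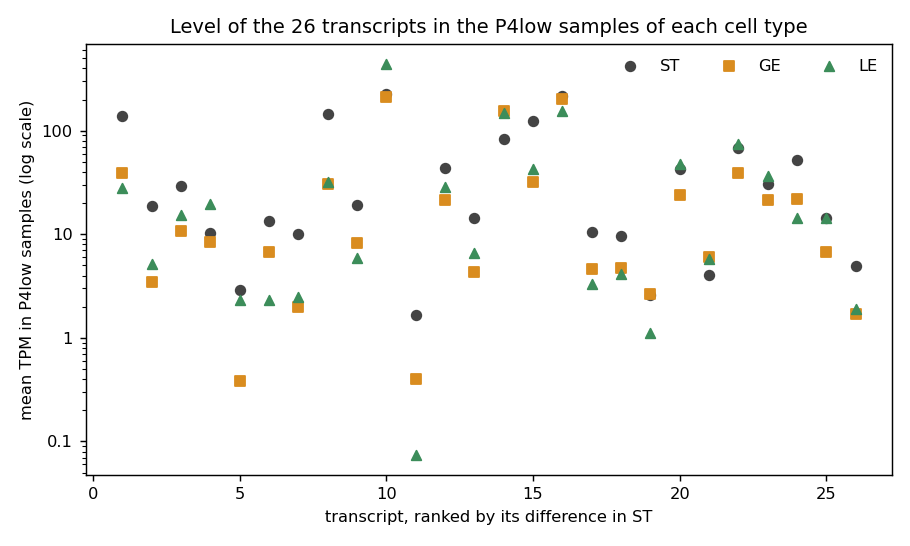
Mean TPM (log scale) of each of the 26 transcripts over the P4low samples of ST (n = 9), GE (n = 7) and LE (n = 6), with the transcripts in the order of their ST difference. ST is the highest of the cell types for 17 transcripts, and rank 10 is at 445 TPM in LE.

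In LE the P4high sample was the one measure of P4 that had no part in the choice beyond the limit on abundant transcripts. Cow 9 also gave ST and GE samples that did have a part in it. It lay below the P4low median for 25 of the 26 transcripts, against 67.5% of the 15561. It lay below all 6 P4low samples for 13 of the 26, against 21.4%. The exception was rank 6, which was at 3.55 TPM in the P4high sample and at 0 to 4.76 TPM in LE P4low. With 1 P4high sample, P4 cannot be told apart from the cow. The edgeR test across 27480 transcripts called 0 of the 26 lower in LE at an adjusted p of at most 0.05 (0.0509% of all tested), and 1 at an unadjusted p under 0.05 (3.63%). DESeq2 called 0 (1.66%), with 6 at an unadjusted p under 0.05 (8.45%), and limma voom, in which the cow was a block, called 0 (0.0328%), with 1 unadjusted (1.66%).

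In ST and GE the same edgeR test called 0 of the 26 lower (0.00728% and 0% of all tested), with 25 and 22 at an unadjusted p under 0.05 (5.92% and 6.04%). DESeq2 called 13 in ST (0.95%) and 12 in GE (1.74%), with 26 and 25 at an unadjusted p under 0.05 (7.74% and 8.32%). Limma voom called 0 in both (0.0291% and 0.0218%), with 26 and 13 unadjusted (4.7% and 3.49%). Since the rule used these contrasts, nothing is read from these counts.

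Between P4low cows, the 26 varied more at the median than the 15561 transcripts, and the gap was wider in the epithelia. The SD of log2(TPM + 0.5) over the P4low samples had a median of 0.64 in ST, 0.85 in GE and 0.94 in LE, against 0.55, 0.61 and 0.56 for the 15561. The rule limited how low an ST P4low value could lie, since each had to be above all ST P4high values. It set no such limit on single GE or LE samples. How far the rule shaped these spreads was not tested, so the wider gap in the epithelia is not read as a trait of the 26. Cow 10 was the lowest P4low cow in both epithelia. It held the lowest P4low value for 17 of the 26 in LE and 12 in GE, where it did so for 16.6% and 15.3% of the 15561, and for 4 in ST (4.84%). The median distance of the 26 from the P4low mean was -0.85 in LE, -0.79 in GE and -0.34 in ST of cow 10, against -1.23, -1.01 and -1.03 in P4high cow 9. In ST the lowest P4low cow was cow 7, with a median distance of -0.51. Cows 6 and 13 were at the other end. In GE, cow 6 held the highest P4low value for 11 of the 26 (32.4% of the 15561) and cow 13 for 9 (4.63%). In LE cow 13 did so for 12 (10.1%). The median distance in GE of cow 6 was 0.52 for the 26 and 0.40 for the 15561, which thus lay high in this sample too. In GE of cow 13 it was 0.50 for the 26 and -0.56 for the 15561.

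**Figure D5:**
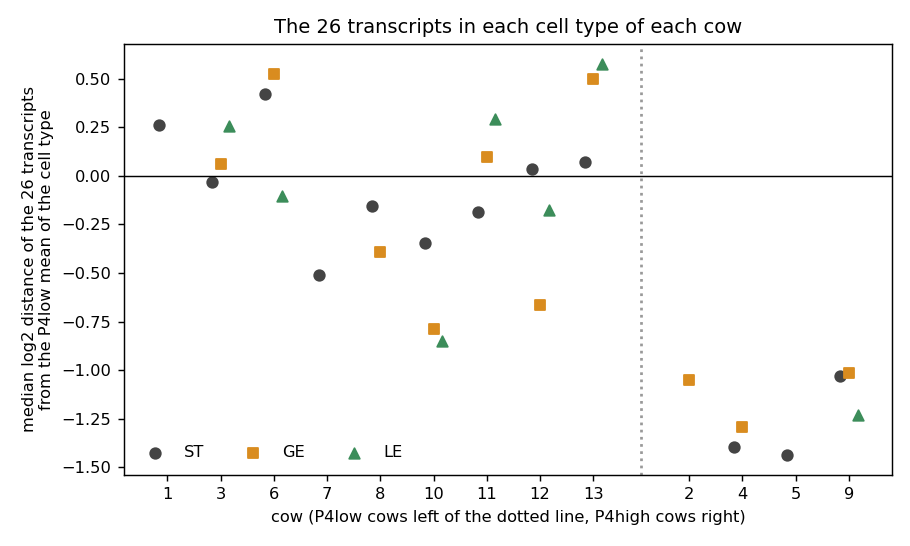
Median over the 26 transcripts of the log2(TPM + 0.5) distance from the P4low mean of the same cell type, for each cell type of each cow, with P4low cows left and P4high cows right of the dotted line. P4high samples lie between -1.44 and -1.01, and the P4low samples nearest to them are those of cow 10 in LE (-0.85) and GE (-0.79).

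Overlap with the P4high samples lay partly in cow 10. Of the 13 transcripts for which the LE P4high sample was not below all P4low samples, cow 10 was below it for 11. Without cow 10, chosen after seeing the data, the LE P4high sample was below all 5 others for 20 of the 26 in place of 13 (25% of the 15561). The GE P4high samples were below all P4low samples for 9 in place of 6 (1.42%). Leaving out a P4low cow can only raise these counts, and the GE samples had a part in the choice. The 9 epithelial transcripts summed to 104225 TPM in GE of cow 10, the highest of the GE samples, to 75557 TPM in its LE sample and to 130143 TPM in the LE P4high sample. Their part in the low values of the 26 was not tested.

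The sample titles open with the letter G or R, which the labels do not explain. Within G the median ST difference of the 26 was -1.46 (2 P4high and 3 P4low samples) and within R it was -0.997 (1 and 6), and that all 26 were lower in both was fixed by the rule. In GE the medians were -1.58 within G (2 and 2) and -0.79 within R (1 and 5), with 26 and 25 lower. In LE, P4high and P4low samples can be compared within R alone (1 and 4), where the median was -1.10 and 25 were lower. Without cow 4, whose ST sample had the highest sum of the epithelial transcripts, the median difference was -1.28 in ST, where the rule again fixed the direction, and -1.06 in GE, with 25 lower.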

How the data were processed

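Salmon 1.1.0 (per the labels) was run by the authors on paired-end reads against the Ensembl bovine cDNA of ARS-UCD1.2, and they deposited 1 file per sample with estimated counts, not normalized, TPM values and transcript lengths. Of the counts above 0, 74.2% were not whole, so counts were rounded for the tests. The members and lists were chosen with earlier results of these data known. The rule was applied to TPM, and differences were taken on mean log2(TPM + 0.5), a scale that understates the change of low transcripts. After a filter that asked for 10 or more counts in 3 or more samples, 27480 transcripts entered edgeR 4.0.16 in R 4.3.3 (TMM, quasi-likelihood, 1 mean for each of 6 groups, Benjamini-Hochberg over all), which treats samples of a cow as independent. Fold changes are edgeR's with its default prior count. Their standard errors were worked out as the absolute fold change over the square root of the quasi-likelihood F statistic. Samples of the same cow deviated together from their group means (21 pairs, median correlation 0.339, lowest 0.085). P4 groups share no cow. No libraries were identical.

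Alternatives were DESeq2 1.42.0, RLE scaling, no count filter, the title letter as a covariate, voom of limma 3.58.1, blocked by cow, the cell type alone, other pseudocounts and limits, and leaving out each cow. DESeq2 ran with its default filters, which can leave a transcript without an adjusted p. Such a transcript counted as not called, and the DESeq2 shares are over all 27480. The edgeR fit was tested on simulated data with 200 changed transcripts per cell type. The changed transcripts were drawn from those above a limit on the mean count, and samples of a cow were simulated as independent. The shares recovered may thus not hold for low transcripts or for samples that share a cow. Of 100 with a log2 change of 1, the fit recovered 9 in ST and 6 in GE. Of 100 with a log2 change of 3, it recovered 73 and 69. It recovered fewer in LE, so a transcript that was not called may still differ. Named were the transcript with the largest ST difference and that with the highest ST P4low mean. Gene lists fixed for this study were not used because transcripts have no gene names here. Neither were sequences. Figures were made with matplotlib 3.10.9.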

Additional observations from a re-analysis of the deposited data

Results flagged for a closer look

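Among 12 sets of P4low values examined (the median and the summed TPM of the 26 transcripts and the TPM of both named transcripts, in ST, GE and LE), 2 held a sample far from the others by Dixon's 95% limit, which chance passes in about 1 of 20 groups. In GE P4low, the median of the 26 was 21.7 TPM in cow 6, against 3.39 to 9.73 TPM in the other 6 cows (gap of 0.654 of the range, limit 0.568). In LE P4low, it was 22.5 TPM in cow 13, against 3.52 to 8.97 TPM in the other 5 cows (gap of 0.713 of the range, limit 0.625). Cow 6 was also the highest ST sample, at 31.0 TPM, and it held the highest GE P4low value for 32.4% of the 15561 transcripts. Their median distance from the P4low mean in this GE sample was 0.40, against 0.52 for the 26. In LE of cow 13 the other direction held over all transcripts, since it had the lowest LE P4low value for 37.6% of the 15561 and their median distance from the P4low mean was -0.33, against 0.58 for the 26.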

How the results depend on the processing

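The number of transcripts that met the rule depended on the scale and on single cows. It was 73 on CPM values scaled by TMM, of which 22 were among the 26, and the cause was not tested beyond the shift in TPM given above. Leaving out 1 cow gave 22 to 92. Without P4high cows 4, 5 and 9 it was 39, 43 and 92, and without P4low cow 10 it was 39. Leaving out an ST sample can only loosen the separation asked of ST, while the limits on medians and means can move either way. Beyond this, why the number differed between cows was not tested. It was 20 to 36 with the other limits tried. The count of the 26 called lower went from 0 with edgeR to 13 in ST and 12 in GE with DESeq2, and was 0 in LE with every tool. The edgeR median log2 fold change of the 26 was -1.81 in ST, -1.83 in GE and -1.46 in LE. Without 1 cow it was -1.98 to -1.62, -1.97 to -1.44 and -1.66 to -1.09. With the cow as a replicate block in limma voom it was -1.62, -1.51 and -1.07, with 0 called. That fit changes the tool and the block together, so the effect of the block alone was not tested. The negative sign in ST and GE was set by the rule. Low counts limit ranks 3, 5 and 11.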
